A study of Mus musculus with 12 samples.

Results

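The genes that write, copy and remove DNA methylation were followed in mouse endometrial cancer lines and in cultured normal endometrial cells. They were taken by name: the DNA methyltransferases Dnmt1, Dnmt3a and Dnmt3b, their catalytically inactive relative Dnmt3l, the maintenance factor Uhrf1 and its relative Uhrf2, the dioxygenases Tet1, Tet2 and Tet3, and the glycosylase Tdg. These are 10 of the 55385 gene identifiers measured. No measured value enters the rule. RNA was sequenced from 12 libraries of C57BL/6 cells: 4 of the endometrial cancer line HPmECC (titles coded WT), 4 of the endometrial cancer line mECC (coded DM) and 4 of primary cultured normal endometrium cells (coded B6, called normal cells here). According to the design text, the cancer lines came with or without Myc overexpression; the labels give neither which line carried it nor the meaning of the codes. No age, treatment, allele or promoter is given for any group, each cancer line is a single line, and whether its libraries represent separate cultures or animals is not stated. The p-values therefore cover the spread among these libraries alone, which may be technical.

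DNA methylation in mammals sits mainly on cytosines that precede a guanine (CpG). DNMT3A and DNMT3B place it on unmethylated DNA, with DNMT3L as a cofactor that is best known from germ cells and embryos, whereas DNMT1 copies it onto the new strand after replication, brought there by UHRF1, which binds DNA methylated on a single strand. TET enzymes oxidise 5-methylcytosine with 2-oxoglutarate, oxygen and iron, and TDG cuts out the later oxidation products so that base excision repair can restore plain cytosine. In endometrial cancers, altered methylation of gene promoters is a well-studied feature.

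RefSeq promoter windows on GRCm38.p6, which run from 250 bases before to 50 bases after a transcript start, held all 10 genes. Of the 17 windows, 5 are shown here because the results below turn on their genes; of the 3 Dnmt1 and 2 Uhrf1 windows, those with E2F-type words are printed, a choice made after the words were searched. Dnmt1 and Uhrf1 were both higher in HPmECC than in mECC, Uhrf2 was lower there, and the Dnmt3a windows hold the starts of its long and its short transcripts. All are written 5′ to 3′ in the direction of the gene. Capitals mark matches on either strand to CACGTG, the E-box bound by MYC with MAX, to the E2F-type words TTTGGCGC, TTTCCCGC, TTTCGCGC and TTTGCCGC, or to CCAAT, the word bound by NF-Y.
Dnmt1, chr9:20952574-20952873, minus strand: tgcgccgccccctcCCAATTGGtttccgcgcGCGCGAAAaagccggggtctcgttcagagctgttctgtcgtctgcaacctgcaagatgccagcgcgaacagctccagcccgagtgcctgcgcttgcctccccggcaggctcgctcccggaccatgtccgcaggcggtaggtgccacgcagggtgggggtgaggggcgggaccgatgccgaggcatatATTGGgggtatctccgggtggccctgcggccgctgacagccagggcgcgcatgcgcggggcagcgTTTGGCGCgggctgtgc
Uhrf1, chr17:56304063-56304362, plus strand: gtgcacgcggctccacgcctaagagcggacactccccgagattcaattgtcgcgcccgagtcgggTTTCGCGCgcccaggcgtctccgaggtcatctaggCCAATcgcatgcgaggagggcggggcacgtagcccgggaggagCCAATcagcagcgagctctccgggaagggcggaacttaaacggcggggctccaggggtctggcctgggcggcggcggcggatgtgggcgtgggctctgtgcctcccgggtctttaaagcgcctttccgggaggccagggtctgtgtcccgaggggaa
Uhrf2, chr19:30030263-30030562, plus strand: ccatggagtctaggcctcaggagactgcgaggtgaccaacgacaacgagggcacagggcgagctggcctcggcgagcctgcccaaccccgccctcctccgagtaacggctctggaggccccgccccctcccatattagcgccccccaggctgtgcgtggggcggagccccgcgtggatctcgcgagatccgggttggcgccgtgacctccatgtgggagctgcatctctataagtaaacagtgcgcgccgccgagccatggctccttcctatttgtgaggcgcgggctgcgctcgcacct
Dnmt3a at the long transcripts, chr12:3806910-3807209, plus strand: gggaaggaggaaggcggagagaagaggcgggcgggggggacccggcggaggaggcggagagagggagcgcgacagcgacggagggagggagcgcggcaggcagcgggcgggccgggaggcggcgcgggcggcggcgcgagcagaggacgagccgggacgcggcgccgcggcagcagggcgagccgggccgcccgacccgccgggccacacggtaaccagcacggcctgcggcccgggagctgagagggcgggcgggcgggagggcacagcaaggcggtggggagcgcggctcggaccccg
Dnmt3a at the short transcript, chr12:3891494-3891793, plus strand: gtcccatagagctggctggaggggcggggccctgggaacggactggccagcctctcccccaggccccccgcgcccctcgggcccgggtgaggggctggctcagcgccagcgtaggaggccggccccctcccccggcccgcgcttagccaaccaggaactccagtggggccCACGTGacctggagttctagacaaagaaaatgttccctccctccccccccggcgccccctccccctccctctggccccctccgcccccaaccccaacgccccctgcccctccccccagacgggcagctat

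The Dnmt1 window shown held 33 CpGs and E2F-type words 219 bases before and 34 bases after the start. It also held CCAAT words 236, 233 and 32 bases before the start, of which the first pair overlap each other. The Uhrf1 window shown likewise held 33 CpGs, with an E2F-type word 185 bases before the start and CCAAT words 150 and 107 bases before it. The other Dnmt1 windows held 2 and 12 CpGs and the other Uhrf1 window 12 CpGs, all with no E2F-type word, so 2 of the 17 windows held one. The Uhrf2 window held 28 CpGs and none of these words. The upstream Dnmt3a window had 47 CpGs and no such word, and the downstream one had 18 CpGs and a CACGTG 80 bases before the start. Among 32851 mouse promoter windows of the same length outside chromosome 18, 2.26% held an E2F-type word, 7.15% held CACGTG and 37.4% held CCAAT. The median window had 7 CpGs (quartiles 3 and 20). Each E2F-type word and CACGTG contains a CpG, and these shares were not matched for CpG content. Elsewhere among the 10 genes, CACGTG was found 28 bases before the Tdg start and 44 bases before a Dnmt3l start, and the Tet2 window, with 57 CpGs, had at least as many as 99.9% of all windows. A match describes the letters only, and no binding or methylation was measured here.

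Libraries held between 18402202 and 26873582 counts in HPmECC, between 21755275 and 25821106 in mECC and between 16332060 and 24202564 in normal cells. Levels compared between groups are counts scaled to library size (CPM, TMM-scaled), where the TMM factor evens out differences in RNA composition. Myc stood at 248 to 302 CPM in HPmECC, at 57.2 to 62.1 CPM in mECC and at 107 to 117 CPM in normal cells. The cultures also differed in cell type markers, none of which were used to group libraries. The 6 epithelial markers summed to between 277 and 290.1 CPM in HPmECC, 919 to 954 in mECC and 6552 to 6837 in normal cells, while the 7 fibroblast markers summed to 5962 to 6603, 5305 to 6023 and 1616 to 2034 CPM in the same order. The fibroblast sum was carried by collagens: Col3a1 had 4042 CPM in HPmECC, 2531 in mECC and 119 in normal cells, and Col1a1 2054, 3077 and 1383 CPM. Of the 7, Col1a1, Col3a1 and Pdgfra were called higher in each line than in normal cells and the other 4 (Col1a2, Dcn, Lum and Thy1) lower; the median over the 7 on the log2 scale was -1.08 in HPmECC and -0.64 in mECC. Thy1 had 0.194 CPM in HPmECC, 0 in mECC and 15.6 in normal cells. The 8 leukocyte markers summed to 13.6 to 17.2 CPM in HPmECC, 6.12 to 8.09 in mECC and 223 to 238 in normal cells, and the 6 smooth muscle markers to 187 to 249.4, 51.4 to 53.7 and 2280 to 2748 CPM. The 6 endothelial markers summed to 5.12 to 7.72, 3.30 to 4.15 and 109 to 122 CPM, and the 5 mesothelial markers to 8.99 to 11.1, 36.6 to 42.1 and 444 to 486 CPM, so the leukocyte, smooth muscle, endothelial and mesothelial sums were highest in normal cells, as was the epithelial sum. Defining markers stood at 0 in the lines: Ptprc, Tyrobp, Cdh5, Tek, Tie1, Upk1b, Upk3b and Lrrn4 in HPmECC, and Tyrobp, Cd52, Thy1, Wt1 and Upk1b in mECC. None was at 0 in normal cells. The part of this mixture in the differences from normal cells was not tested. In bulk RNA, fewer cells of a type and less RNA per cell cannot be told apart.

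All 10 genes passed the filter on low counts; Dnmt3l did so only through HPmECC and normal cells, where it is higher, and Tet1 only through the cancer lines, so their calls are also given from a fit of 27264 genes with no such filter. A gene is called when its Benjamini-Hochberg adjusted p from edgeR's quasi-likelihood test, over all 15283 genes tested, is below 0.05. The 3 comparisons share their groups, so they are not independent of each other. Between the cancer lines, Dnmt1, Uhrf1, Tet1 and Dnmt3l were called higher in HPmECC and Uhrf2 lower. These are 5 of 10 genes, where 68.3% of all genes tested were called. In mECC against normal cells, Uhrf1, Uhrf2, Dnmt3a, Tet1, Tet2 and Tet3 were called higher and Dnmt3l lower, or 7 of 10 against 86.3% of all genes. In HPmECC against normal cells the same 6 genes and Dnmt1 were called higher and Dnmt3l lower, or 8 of 10 against 86.4% of all genes. The shares called were thus near or under those of all genes in each comparison. By direction, 4 of 10 were higher and 1 lower in HPmECC against mECC, beside 33.8% and 34.5% of all genes. In mECC against normal cells 6 were higher and 1 lower (42.1% and 44.2% of all genes), and in HPmECC against normal cells 7 were higher and 1 lower (43.0% and 43.3%). Groups did not overlap in 5, 7 and 7 of the 10 genes in these comparisons, against 63.0%, 82.3% and 81.7% of all genes. The median log2 fold change of the 10 was 0.07, 0.61 and 0.79 in these comparisons, and that of all genes was -0.0017, -0.018 and 0.0012. Dnmt3b and Tdg were called in none. Without the filter, the numbers of the 10 genes called in each direction were the same.

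**Figure D1:**
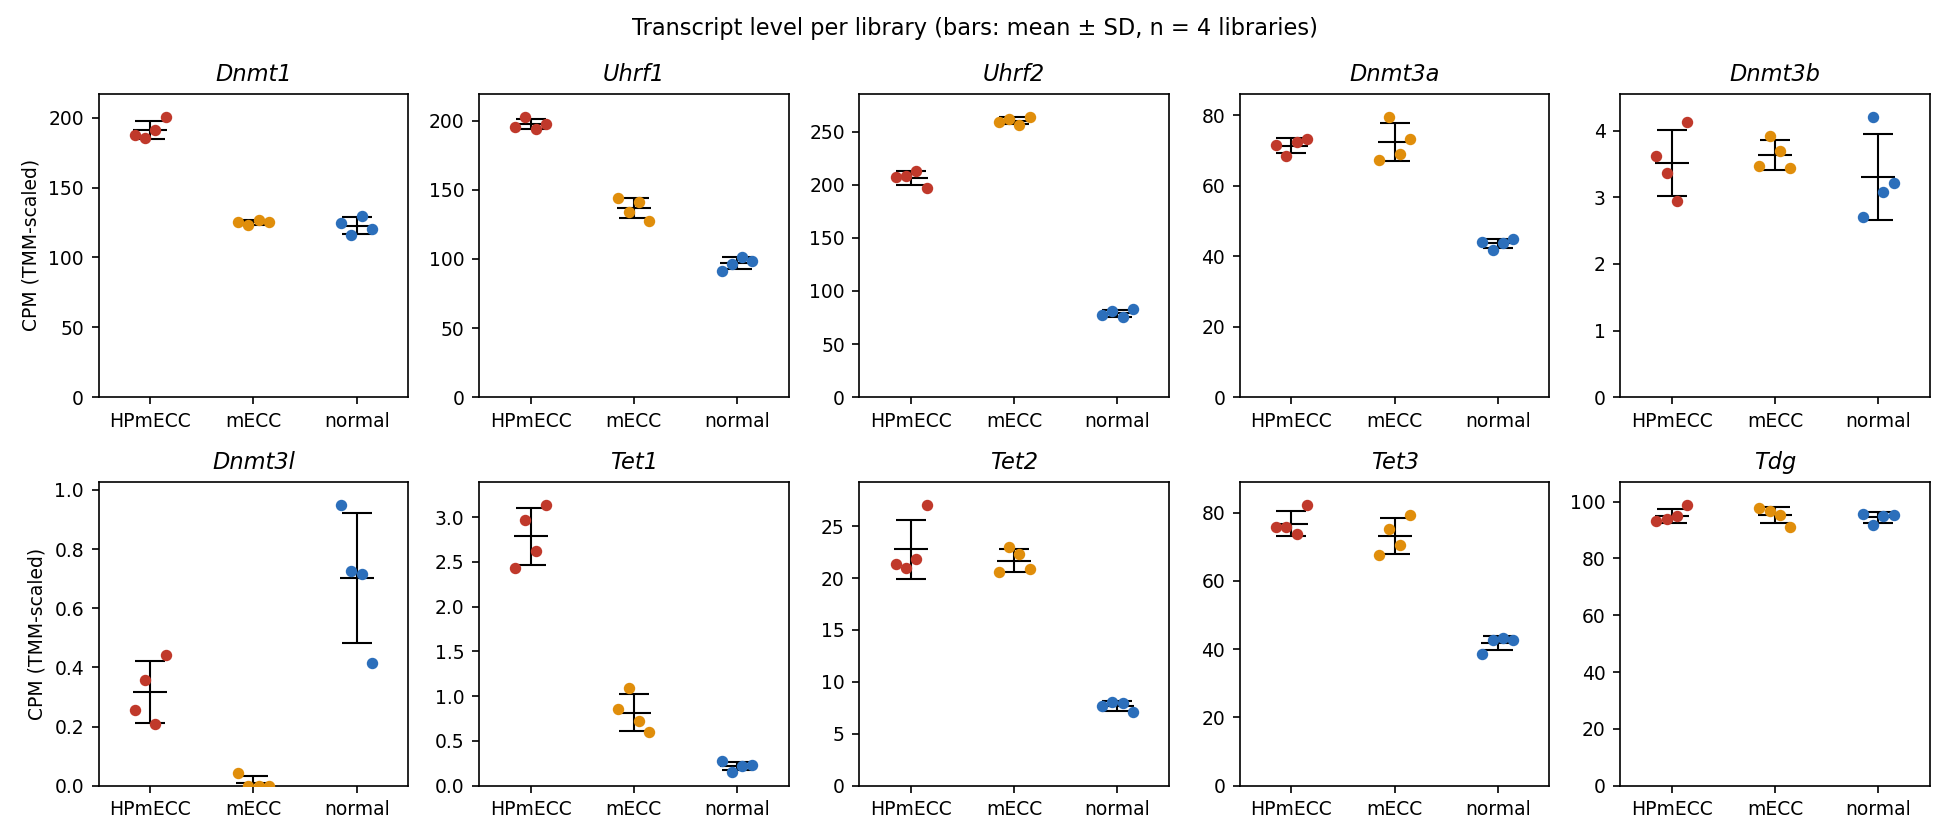
Level of each gene in every library, in TMM-scaled CPM on the vertical axis, which starts at 0 and differs between panels. Points are libraries of HPmECC, mECC and normal cells from left to right, and bars show the mean ± SD of 4 libraries. Uhrf1 and Tet1 step down from HPmECC to mECC to normal cells, Uhrf2 is highest in mECC, and Tdg has means of 95.02, 95.2 and 94.4 CPM.

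The maintenance methyltransferase Dnmt1 (ENSMUSG00000004099, chromosome 9, 20907209 to 20959888 of GRCm38, minus strand) had 188, 186, 191 and 201 CPM in HPmECC libraries, 125, 123, 127 and 125 CPM in mECC libraries and 125, 116, 129.9 and 120.1 CPM in normal libraries. Every HPmECC library lay above every other library, while the mECC and normal libraries overlapped. The mean was 191 ± 6.57 CPM in HPmECC, 125 ± 1.64 in mECC and 123 ± 5.91 in normal cells (SD, n = 4 each). Relative to mECC, Dnmt1 was 1.53-fold higher in HPmECC (log2 fold change 0.61 with an SE of 0.03, edgeR adjusted p = 1.07e-11) and relative to normal cells 1.56-fold higher (0.64 with an SE of 0.03, edgeR adjusted p = 1.53e-12). mECC and normal cells differed by 0.03 on the log2 scale (an SE of 0.03, edgeR adjusted p = 0.444). With library totals in place of TMM, which moved the median of all genes by 0.24 in mECC against normal cells, Dnmt1 was called there at 0.27 (edgeR adjusted p = 6.42e-07). It was also called there in TPM, at 0.27 on the log2(TPM + 1) scale (limma adjusted p = 1.7e-05) and 0.28 on the log2(TPM + 0.1) scale (limma adjusted p = 1.64e-05).

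Uhrf1 (ENSMUSG00000001228, chromosome 17, 56303321 to 56323486, plus strand), which brings DNMT1 to newly replicated DNA, had 196, 203, 194 and 198 CPM in HPmECC libraries. It had 144, 134, 141 and 128 CPM in mECC libraries and 91.2, 96.6, 101 and 98.4 CPM in normal libraries. No 2 groups overlapped, and the order was HPmECC, mECC, normal cells. HPmECC exceeded mECC 1.44-fold (log2 fold change 0.53 with an SE of 0.04, edgeR adjusted p = 3.28e-10), and mECC exceeded normal cells by nearly the same step, 1.41-fold (0.50 with an SE of 0.04, edgeR adjusted p = 5.83e-10). HPmECC stood 2.04-fold above normal cells (1.03 with an SE of 0.04, edgeR adjusted p = 6.17e-15). The near equality of the steps depended on TMM. With library totals, the log2 fold change of Uhrf1 was 0.49 in HPmECC against mECC and 0.74 in mECC against normal cells. On the log2(TPM + 1) scale it was 0.45 and 0.75. Against normal cells, Uhrf1 passed the test in both cancer lines and Dnmt1 in HPmECC.

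Uhrf2 (ENSMUSG00000024817, chromosome 19, 30030513 to 30093722, plus strand) encodes a protein of the same domain order as UHRF1 that does not replace it in maintaining methylation and that binds 5-hydroxymethylcytosine. It ordered the groups differently. HPmECC libraries had 207, 209, 213 and 197 CPM, mECC libraries 259, 262, 256 and 264 CPM, and normal libraries 77.2, 81.0, 75.7 and 82.8 CPM, with no overlap between any groups. HPmECC was 1.26-fold below mECC (log2 fold change -0.34 with an SE of 0.03, edgeR adjusted p = 1.18e-08), and it exceeded normal cells 2.603-fold (1.38 with an SE of 0.03, edgeR adjusted p = 4.97e-18). mECC was 3.29-fold above normal cells (1.72 with an SE of 0.03, edgeR adjusted p = 1.82e-19), a change larger in size than that of 74.2% of all genes tested. Uhrf1 and Uhrf2 thus differed in opposite directions between the cancer lines and were both higher in each line than in normal cells.

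Per transcript length, in the authors' TPM, Uhrf2 and Uhrf1 stood at 103 ± 3.89 and 101 ± 1.77 TPM in HPmECC, at 138 ± 1.54 and 73.6 ± 4.88 TPM in mECC and at 35.5 ± 2.53 and 43.4 ± 1.077 TPM in normal cells (SD, n = 4 each). The ratio of Uhrf2 to Uhrf1 within a library was 1.03 ± 0.04 in HPmECC, 1.89 ± 0.13 in mECC and 0.818 ± 0.071 in normal cells. Its libraries ran between 0.982 and 1.06 in HPmECC, between 1.74 and 2.06 in mECC and between 0.738 and 0.909 in normal cells, so the groups did not overlap. Uhrf2 thus led in mECC, Uhrf1 led in normal cells, and the levels of both overlapped in HPmECC. Both UHRF genes together amounted to 3.35 ± 0.18 times the Dnmt1 level in HPmECC, 5.07 ± 0.15 times in mECC and 2.29 ± 0.15 times in normal cells. These ratios are given as a description, with no test.

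**Figure D2:**
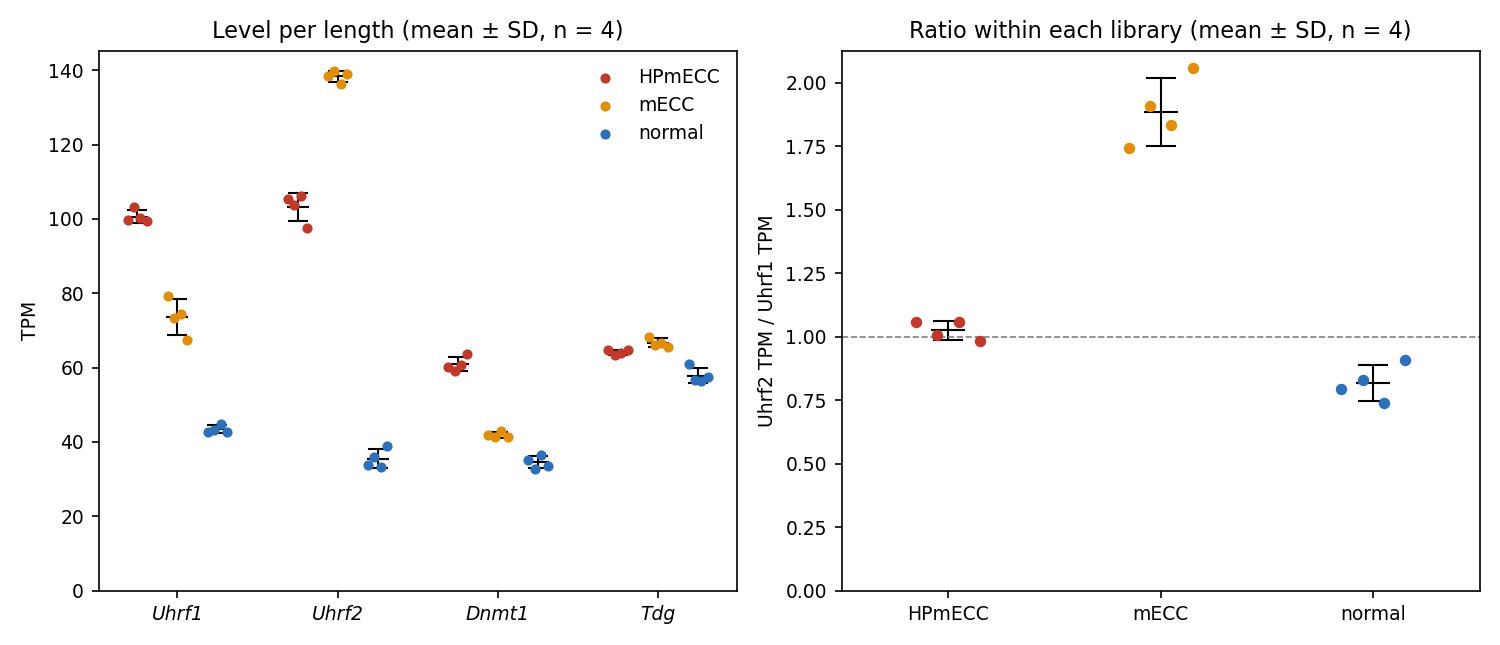
Left, mean TPM ± SD of Uhrf1, Uhrf2, Dnmt1 and Tdg in HPmECC, mECC and normal cells, 4 libraries each. Right, the ratio of Uhrf2 to Uhrf1 TPM in every library, with the mean ± SD and a dashed line at equal levels; mECC libraries lie between 1.74 and 2.06 and normal libraries between 0.738 and 0.909.

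Of 21 S phase and proliferation genes, 17 were called higher and 1 lower in HPmECC against mECC, 13 higher and 6 lower in mECC against normal cells, and 16 higher and 0 lower in HPmECC against normal cells, with median log2 fold changes of 0.22, 0.27 and 0.65. The shares called higher and lower were 33.8% and 34.5% of all genes in HPmECC against mECC, 42.1% and 44.2% in mECC against normal cells and 43.0% and 43.3% in HPmECC against normal cells. The list summed to 2415 to 2538 CPM in HPmECC, 1814 to 1976 in mECC and 1495 to 1540.0 in normal cells. The helicase subunit Mcm6 had 202 ± 8.25 CPM in HPmECC, against 118 ± 4.03 in mECC, the origin licensing factor Cdt1 73.9 ± 2.49 and 43.1 ± 1.43 CPM, and cyclin A2 (Ccna2) 173 ± 4.79 and 112 ± 6.47 CPM. The topoisomerase gene Top2a had 436 ± 4.36 CPM in HPmECC, 324 ± 12.3 in mECC and 176 ± 7.44 in normal cells. Thymidine kinase (Tk1) had 64.4 ± 3.83 CPM in mECC, against 32.9 ± 0.53 in normal cells, and thymidylate synthase (Tyms) 70.3 ± 3.24 and 37.3 ± 1.76 CPM. Other values ran against this order. Mcm6 had 129 ± 1.84 CPM in normal cells, above mECC, and Tyms 61.0 ± 1.92 CPM in HPmECC, below mECC. Mcm3 (86.85 CPM in mECC and 101.8 in normal cells) and Rrm2 (123.4 and 144.8 CPM) were named after their values were seen. Both had lower means in mECC. The part of proliferation in the Dnmt1 and Uhrf1 differences was not tested.

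The gene whose pattern of group means lay nearest to that of Dnmt1, among 10727 genes compared by the root mean square difference of centred log2 CPM, was Mki67, which encodes the proliferation antigen Ki-67. Mki67 had 221 CPM in HPmECC, 144 in mECC and 139.8 in normal cells (difference 0.0087). Cacybp (162, 105 and 105 CPM) and Ahdc1 (56.6, 37.6 and 36.8 CPM) followed. For Uhrf1 the nearest were Josd1, with 123 CPM in HPmECC, 84.9 in mECC and 59.7 in normal cells, Tfb1m and Pcbp2. These likenesses rest on 3 group means of 4 libraries each.

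Partners that help place or keep methylation were called in both directions. Of 17 such genes, 16 were tested; 7 were higher and 5 lower in HPmECC against mECC, and 10 were higher and 5 lower in each comparison with normal cells, with median log2 fold changes of 0.07, 0.19 and 0.31 (HPmECC against mECC, mECC against normal cells, HPmECC against normal cells). Called higher and lower in these comparisons were 33.8% and 34.5% of all genes, 42.1% and 44.2%, and 43.0% and 43.3%, so the counts between the lines were near those of all genes. Cdca7, which recruits the remodelling helicase HELLS to chromatin, had 75.5 ± 2.95 CPM in HPmECC, 53.7 ± 1.86 in mECC and 27.5 ± 2.12 in normal cells. Hells itself had 65.5 ± 1.59 CPM in HPmECC, against 49.0 ± 2.88 in mECC, and Lig1, the replicative DNA ligase that UHRF1 binds, 76.0 ± 2.51 and 53.6 ± 2.40 CPM. Zbtb24, an activator of Cdca7, had 25.6 ± 0.81 CPM in mECC, against 14.7 ± 1.1 in normal cells. Ehmt2, a histone H3 lysine methyltransferase, had 316 ± 4.75 CPM in HPmECC, 334 ± 3.59 in mECC and 177 ± 2.12 in normal cells. Dppa3, a germ cell and oocyte factor that keeps UHRF1 from chromatin, was not tested and stood at 0 counts in both lines. From each list, up to 3 called genes with the largest fold change and at least 5 CPM were picked per comparison. In the comparison for which a gene was picked, its edgeR adjusted p was at most 0.000139 (HPmECC against mECC), 6.98e-10 (mECC against normal cells) or 5.48e-12 (HPmECC against normal cells). These limits do not cover the other comparisons whose levels are printed beside it. Ehmt2, picked in both comparisons with normal cells, had an edgeR adjusted p of 0.00507 between the lines.

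Proteins that read methylated CpG were mostly lower in HPmECC than in mECC: of 9 genes 1 was higher and 6 were lower, where 33.8% of all genes were higher and 34.5% lower. Their median log2 fold change was -0.125. Zbtb4, a methyl-CpG zinc finger protein, had 31.0 ± 1.38 CPM in HPmECC, 57.1 ± 2.54 in mECC and 57.1 ± 1.98 in normal cells; mECC and normal cells did not pass the test (edgeR adjusted p = 0.995). Its relative Zbtb38 was the member called higher, at 114 ± 2.91 CPM in HPmECC, against 82.5 ± 1.09 in mECC. Against normal cells 4 readers were higher and 3 lower in mECC, and 4 higher and 4 lower in HPmECC, which is near the 42.1% and 44.2% and the 43.0% and 43.3% of all genes. Mbd1 had 31.2 ± 1.19 CPM in HPmECC, 37.8 ± 1.19 in mECC and 66.8 ± 1.76 in normal cells, and Mbd2 53.9 ± 2.19, 54.4 ± 0.32 and 93.6 ± 1.70 CPM. Mbd2 did not pass the test between the lines (edgeR adjusted p = 0.722).

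Of the de novo enzymes, Dnmt3a was higher in both cancer lines than in normal cells, and Dnmt3b stayed low everywhere. Dnmt3a (ENSMUSG00000020661, chromosome 12, 3806007 to 3914443, plus strand) had 71.6, 68.3, 72.3 and 73.2 CPM in HPmECC libraries, 67.3, 79.5, 69.1 and 73.1 CPM in mECC libraries and 43.9, 41.8, 43.9 and 44.9 CPM in normal libraries. The cancer lines overlapped, and no normal library reached either of them. Dnmt3a was 1.66-fold higher in mECC than in normal cells (log2 fold change 0.73 with an SE of 0.05, edgeR adjusted p = 4.1e-11) and 1.64-fold higher in HPmECC than in normal cells (0.71 with an SE of 0.05, edgeR adjusted p = 6.68e-11). HPmECC and mECC differed by -0.02 (an SE of 0.04, edgeR adjusted p = 0.706).

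The Dnmt3a transcripts also differed in the length that the deposited values imply. RSEM's FPKM divides a gene's counts by an effective length averaged over its transcripts, so counts over FPKM return that length, which was taken where a library had at least 50 counts. For Dnmt3a it was 6173, 6514.5, 6657 and 7066 bases in HPmECC libraries, 7069.9, 7221, 6180.3 and 6579 bases in mECC libraries and 5629, 5326, 5192 and 5269.9 bases in normal libraries. All 8 cancer line libraries implied longer Dnmt3a transcripts than any normal library, with means of 6603 ± 370 bases in HPmECC, 6763 ± 475 bases in mECC and 5354 ± 191 bases in normal cells. In the GENCODE M21 annotation the long coding transcripts of Dnmt3a have 9685 and 8737 bases and start at 3807030 and 3807160, both within the upstream window printed above, and a coding transcript of 5424 bases starts at 3891744, within the downstream one. The short form is known to encode DNMT3A2, which lacks the first part of DNMT3A. The annotation also lists other short Dnmt3a entries, among them retained introns of 4014 and 1944 bases. A mean length does not tell which of all these transcripts differed. Implied lengths are RSEM estimates, and no transcript was measured on its own here.

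The other genes with an implied length in every group moved less. Tet1 reached 50 counts only in HPmECC, where its implied length ran from 5545 to 11439 bases, so its groups cannot be compared. Dnmt3l reached 50 counts in no library. Dnmt1 implied 5095 ± 10.9 bases in HPmECC, 5087 ± 66.8 bases in mECC and 5102 ± 21.0 bases in normal cells, and Tet3 9744 ± 77.6, 9632 ± 8.82 and 9557 ± 109.8 bases. Tet2 implied 7565 ± 697, 7291 ± 319.5 and 6793 ± 342 bases, with libraries that overlapped between all groups. Uhrf1, Uhrf2 and Tdg had means of 3188, 3249 and 2406 bases in HPmECC, 3164, 3203 and 2429.5 bases in mECC and 3207, 3211 and 2344 bases in normal cells. Dnmt3b implied 3532 ± 469.8 bases in HPmECC, 3656 ± 174 bases in mECC and 3781 ± 118 bases in the 3 normal libraries with at least 50 counts.

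**Figure D3:**
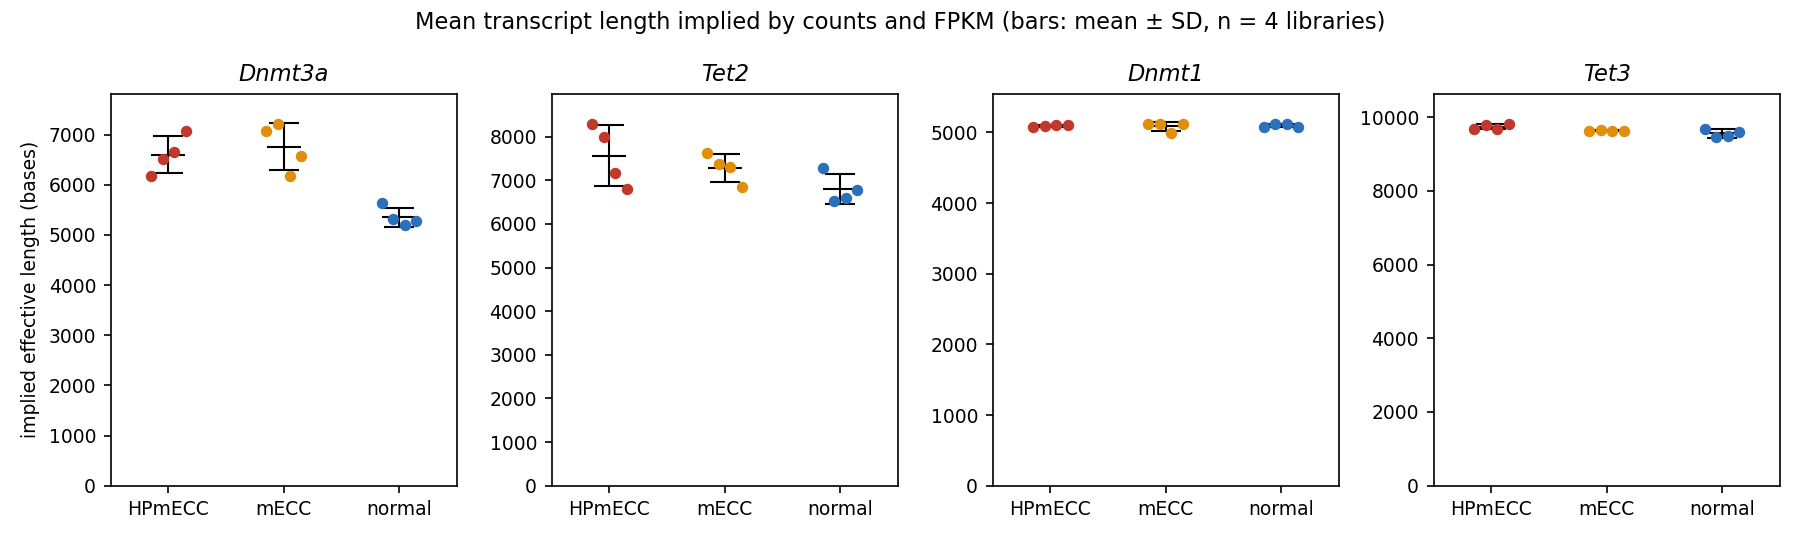
Effective transcript length in bases implied by counts over FPKM in every library for Dnmt3a, Tet2, Dnmt1 and Tet3, with the mean ± SD of 4 libraries. Dnmt3a libraries of HPmECC and mECC lie at 6173 bases or more and normal libraries at 5629 bases or less, while Dnmt1 stays between 4987 and 5125 bases.

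Dnmt3b (ENSMUSG00000027478, chromosome 2, 153649450 to 153687730, plus strand) had 3.62, 3.36, 2.94 and 4.13 CPM in HPmECC libraries, 3.46, 3.92, 3.70 and 3.45 CPM in mECC libraries and 2.71, 4.21, 3.09 and 3.21 CPM in normal libraries. All 3 groups overlapped. Its log2 fold change was -0.04 in HPmECC against mECC (an SE of 0.14, edgeR adjusted p = 0.804), 0.13 in mECC against normal cells (an SE of 0.14, edgeR adjusted p = 0.406) and 0.09 in HPmECC against normal cells (an SE of 0.15, edgeR adjusted p = 0.58). These values rest on 40 to 112 counts per library. With library totals in place of TMM, mECC was called higher than normal cells at 0.37 (edgeR adjusted p = 0.0229), and so it was in TPM, at 0.25 and 0.41 with pseudocounts of 1 and 0.1 (limma adjusted p = 0.0348 and 0.0428). The nearest patterns to Dnmt3b were those of Agpat1 (132 CPM in HPmECC, 138 in mECC and 125 in normal cells), Ccnl2 and Tvp23b.

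Dnmt3l (ENSMUSG00000000730, chromosome 10, 78041947 to 78063622, plus strand) was counted 6, 10, 4 and 12 times in HPmECC libraries, 1, 0, 0 and 0 times in mECC libraries and 14, 14, 13 and 9 times in normal libraries. All mECC libraries lay below all others, and the HPmECC and normal libraries overlapped. Scaled to depth, HPmECC had 32.4 times the mECC counts (exact 95% interval 5.41 to 1320.0), and mECC had 1 count against 50 in normal cells, which scaled to depth is a ratio of normal cells to mECC of 58.4 (10 to 2350.0). These intervals and the others on counts cover counting error only. Both differences were called (edgeR adjusted p = 2.91e-05 in HPmECC against mECC and 2.28e-07 in mECC against normal cells). Without the filter on low counts, which Dnmt3l passed through its higher groups, edgeR adjusted p was 7.37e-07 and 6.26e-12. In fits of only the groups compared, Dnmt3l did not pass the filter in either comparison with mECC and was not tested. The fitted log2 fold changes, 4.43 and -5.49, depend on the prior count and on the lone mECC count: without mECC replicate 1 they were 5.91 and -6.97. HPmECC was called lower than normal cells (log2 fold change -1.06 with an SE of 0.36, edgeR adjusted p = 0.0104, or 0.0353 without the filter), although the highest HPmECC library, at 0.442 CPM, lay above the lowest normal one, at 0.413 CPM. Aire, which overlaps Dnmt3l on the opposite strand, had 9 counts in HPmECC, 0 in mECC and 24 in normal cells, and without a stated strand setting the reads of these genes cannot be told apart.

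The germline genes that methylation is known to keep silent were mostly not measurable. Of 19 such genes, 2 passed the filter on low counts, and 11 stood at 0 counts in HPmECC, 9 in mECC and 8 in normal cells. Piwil2, which encodes a piRNA-binding protein, had 0.0700 ± 0.0735 CPM in HPmECC, 0.0576 ± 0.0173 in mECC and 9.79 ± 0.50 in normal cells. Brdt, a testis bromodomain gene named after its values were seen, had 2.82 ± 0.24 CPM in HPmECC, 4.33 ± 0.25 in mECC and 0.798 ± 0.357 in normal cells. It passed the test as lower in HPmECC than in mECC (a log2 fold change of -0.62 with an SE of 0.15, edgeR adjusted p = 0.00173) and higher in both lines than in normal cells.

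All 3 TET genes were higher in both cancer lines than in normal cells, and of them only Tet1 was called between the lines. Tet1 (ENSMUSG00000047146, chromosome 10, 62804570 to 62908996, minus strand), best known from embryonic stem cells and germ cells, was counted 57, 83, 50 and 85 times in HPmECC libraries, 20, 30, 20 and 14 times in mECC libraries and 4, 3, 4 and 5 times in normal libraries. That is 2.79 ± 0.32 CPM in HPmECC, 0.816 ± 0.211 in mECC and 0.219 ± 0.048 in normal cells (SD, n = 4 each), with no overlap between groups. HPmECC exceeded mECC 3.39-fold (log2 fold change 1.76 with an SE of 0.20, edgeR adjusted p = 2.37e-07) and mECC exceeded normal cells 3.72-fold (1.90 with an SE of 0.32, edgeR adjusted p = 2.01e-05). Against normal cells, HPmECC stood 12.6-fold higher (3.66 with an SE of 0.27, edgeR adjusted p = 2.19e-10). Without the filter, edgeR adjusted p was 1.24e-12, 1.24e-06 and 2.92e-27 in these comparisons. From the summed counts alone, HPmECC had 14.9 times the Tet1 of normal cells (exact 95% interval 9.02 to 26.5).

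In TPM the Tet1 picture was less even, at 0.47, 0.42, 0.77 and 0.46 TPM in HPmECC libraries, 0.46, 0.34, 0.38 and 0.22 TPM in mECC libraries and 0.07, 0.35, 0.02 and 0.02 TPM in normal libraries. HPmECC replicate 3 and normal replicate 2 stood apart from their groups, and the groups overlapped. HPmECC replicate 3 also implied a Tet1 transcript of 5545 bases, against 8371, 11439 and 11116 bases in the other HPmECC libraries. The call between the lines was lost in TPM, with a log2 fold change of 0.18 on the log2(TPM + 1) scale (limma adjusted p = 0.151) and 0.48 on the log2(TPM + 0.1) scale (limma adjusted p = 0.289). In counts the call held with each library of the lines left out in turn, with log2 fold changes from 1.64 to 1.94. Serpinf1, an inhibitor of blood vessel growth, had the pattern nearest to Tet1, with 159 CPM in HPmECC, 54.3 in mECC and 25.2 in normal cells, followed by Gdnf and Fam185a.

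Tet2 (ENSMUSG00000040943, chromosome 3, 133463679 to 133545139, minus strand), a TET enzyme without a CXXC DNA-binding domain of its own, had 21.4, 20.9, 21.8 and 27.001 CPM in HPmECC libraries and 20.6, 23.0, 22.3 and 20.9 CPM in mECC libraries. Normal libraries had 7.65, 8.10, 7.99 and 7.07 CPM. Both lines lay far above all normal libraries and overlapped each other. Tet2 was 2.97-fold higher in HPmECC than in normal cells (log2 fold change 1.57 with an SE of 0.09, edgeR adjusted p = 3.7e-12) and 2.82-fold higher in mECC than in normal cells (1.497 with an SE of 0.09, edgeR adjusted p = 8.07e-12). HPmECC and mECC differed by 0.07 (an SE of 0.07, edgeR adjusted p = 0.387), and without HPmECC replicate 4 by -0.02. The implied Tet2 transcript of HPmECC replicate 4, at 6797 bases, was the shortest of its group.

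Tet3 (ENSMUSG00000034832, chromosome 6, 83362373 to 83459084, minus strand), the TET gene with the most transcripts here, had 75.7, 75.7, 73.8 and 82.1 CPM in HPmECC libraries, 67.6, 75.3, 70.5 and 79.2 CPM in mECC libraries and 38.7, 42.6, 43.2 and 42.6 CPM in normal libraries. The lines overlapped and both lay above all normal libraries. Tet3 was 1.84-fold higher in HPmECC than in normal cells (log2 fold change 0.88 with an SE of 0.05, edgeR adjusted p = 7.06e-12) and 1.75-fold higher in mECC than in normal cells (0.81 with an SE of 0.05, edgeR adjusted p = 2.72e-11). HPmECC and mECC differed by 0.07 (an SE of 0.05, edgeR adjusted p = 0.189). Without mECC replicate 4 that difference was called, at 0.11 (edgeR adjusted p = 0.0471).

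Tdg (ENSMUSG00000034674, chromosome 10, 82629828 to 82650799, plus strand), which acts after the TET enzymes, had 93.0, 93.7, 94.7 and 98.6 CPM in HPmECC libraries, 97.9, 96.5, 95.3 and 91.2 CPM in mECC libraries and 95.7, 91.6, 94.9 and 95.3 CPM in normal libraries. All groups overlapped, and the log2 fold changes were -0.0031 in HPmECC against mECC, 0.013 in mECC against normal cells and 0.0102 in HPmECC against normal cells (SE 0.03 each; edgeR adjusted p = 0.942, 0.695 and 0.765). With library totals in place of TMM, Tdg was called higher than in normal cells in mECC, at 0.25 (edgeR adjusted p = 4.87e-07), and in HPmECC, at 0.21 (edgeR adjusted p = 7.74e-06). In TPM it was called higher as well, at 0.202 and 0.205 in mECC (limma adjusted p = 2.36e-05 and 2.21e-05) and at 0.147 and 0.149 in HPmECC (limma adjusted p = 0.00041 and 0.000379), with pseudocounts of 1 and 0.1. Library totals moved the median of all genes by 0.24 and 0.196 in these comparisons. Glt8d2, which overlaps Tdg on the opposite strand, had 45, 18 and 34 counts in HPmECC, mECC and normal cells.

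**Figure D4:**
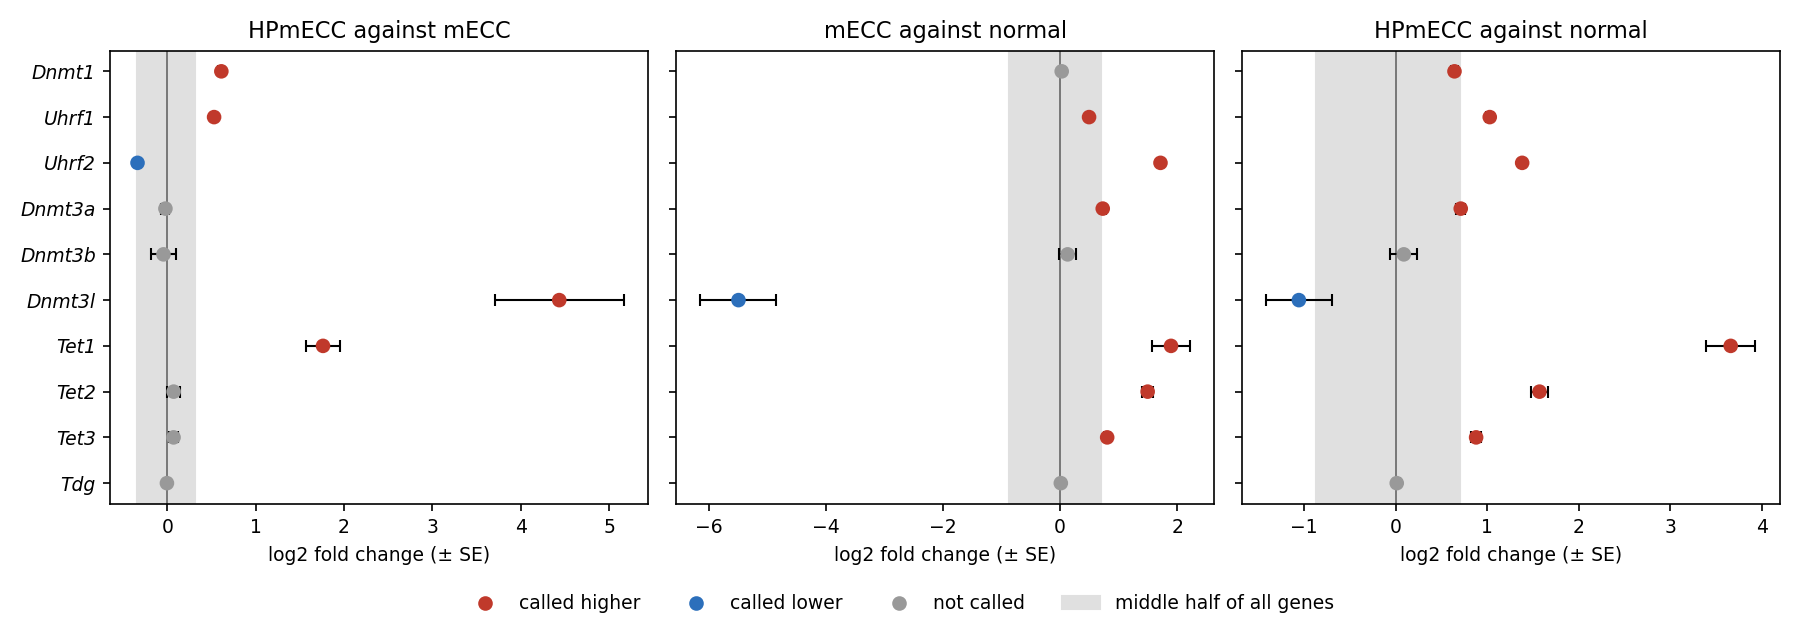
Log2 fold change ± SE of each gene in the 3 comparisons, on horizontal axes that differ between panels. Red marks genes called higher in the group named first, blue genes called lower and grey genes not called, and the shaded band spans the quartiles of all genes tested. Dnmt3l lies farthest from 0 in HPmECC against mECC (4.43) and in mECC against normal cells (-5.49), and Tet1 in HPmECC against normal cells (3.66).

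Per transcript length, the order in HPmECC was Uhrf2 (103 TPM), Uhrf1 (101), Tdg (64.1), Dnmt1 (60.9), Dnmt3a (17.6), Tet3 (12.8), Tet2 (4.96), Dnmt3b (1.64), Dnmt3l (0.908) and Tet1 (0.53), all in TPM. Neighbours whose libraries overlapped were Uhrf2 with Uhrf1, Tdg with Dnmt1, and Dnmt3l with Tet1. In mECC the order was the same down to Dnmt3b, with Uhrf2 at 138 TPM, Uhrf1 and Tdg overlapping at 73.6 and 66.7 TPM, Dnmt1 at 41.8 TPM, and Tet1 (0.35 TPM) above Dnmt3l (0.02 TPM). In normal cells Tdg led with 57.8 TPM, before Uhrf1 at 43.4 TPM, Uhrf2 and Dnmt1 overlapping at 35.5 and 34.5 TPM, Dnmt3a at 11.7 TPM and Tet3 at 6.28 TPM. Dnmt3l, Tet2 and Dnmt3b followed at 1.69, 1.64 and 1.27 TPM, where each overlapped the next, and Tet1 was lowest at 0.115 TPM.

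Summed over the family, Tet1, Tet2 and Tet3 came to 18.3 ± 1.48 TPM in HPmECC, 18.3 ± 1.05 TPM in mECC and 8.03 ± 0.58 TPM in normal cells. Tet3 made up 70.2% ± 3.38 of this in HPmECC, 70.5% ± 1.26 in mECC and 78.2% ± 2.28 in normal cells, and Tet2 26.9% ± 3.34, 27.6% ± 0.93 and 20.4% ± 0.90. The catalytic methyltransferases Dnmt1, Dnmt3a and Dnmt3b summed to 80.2 ± 1.94 TPM in HPmECC, 61.7 ± 1.71 TPM in mECC and 47.5 ± 1.69 TPM in normal cells. Methyltransferase transcripts thus outnumbered TET transcripts 4.40 ± 0.28 times in HPmECC, 3.37 ± 0.18 times in mECC and 5.94 ± 0.50 times in normal cells, and the libraries of the 3 groups did not overlap in this ratio (4.02 to 4.67, 3.20 to 3.56 and 5.28 to 6.49). The ratio was lower in both lines than in normal cells, and lowest in mECC. These sums and ratios were not tested.

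CXXC proteins and TET partners were called in both directions: of 10 genes, 2 were higher and 3 lower in HPmECC against mECC, 6 higher and 3 lower in mECC against normal cells, and 5 higher and 4 lower in HPmECC against normal cells, with median log2 fold changes of -0.01, 0.21 and 0.06. All genes were called higher and lower at 33.8% and 34.5%, 42.1% and 44.2%, and 43.0% and 43.3% in these comparisons, so most of these counts lay near or under the background. Cxxc4, whose protein is known to lower TET2 protein levels and which was named after its values were seen, had 0.661 ± 0.11 CPM in HPmECC, 4.29 ± 0.11 in mECC and 0.234 ± 0.040 in normal cells. Its fold change was -2.70 on the log2 scale between the lines (an SE of 0.17, edgeR adjusted p = 5.4e-11). Cxxc5 had 38.0 ± 2.06 CPM in HPmECC, against 60.1 ± 1.93 in mECC. The histone methyltransferase Kmt2a had 60.5 ± 7.52 CPM in HPmECC, 41.2 ± 3.78 in mECC and 82.4 ± 4.70 in normal cells. Sin3a, a corepressor that binds TET1, had 93.6 ± 2.62, 69.6 ± 2.83 and 54.6 ± 1.89 CPM in the same order. Ogt, the glycosyltransferase that binds TET proteins, was lower in both lines (71.8 ± 3.30 CPM in HPmECC, against 74.1 ± 3.35 in mECC, against 125 ± 3.71 CPM in normal cells), whereas the CXXC demethylase gene Kdm2b was higher (62.0 ± 1.09 and 62.4 ± 1.99 CPM, against 35.7 ± 1.23 CPM). Neither passed the test between the lines (edgeR adjusted p = 0.306 for Ogt and 0.833 for Kdm2b).

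Base excision repair, which completes the removal that TDG begins, had 18 genes tested, of which those called higher and lower numbered 9 and 1 in HPmECC against mECC, 11 and 6 in mECC against normal cells, and 9 and 6 in HPmECC against normal cells, with median log2 fold changes of 0.13, 0.39 and 0.42. Beside them stood 33.8% and 34.5% of all genes in HPmECC against mECC, 42.1% and 44.2% in mECC against normal cells and 43.0% and 43.3% in HPmECC against normal cells, and the last count was close to this background. Mbd4, a glycosylase that like TDG removes thymine opposite guanine, had 9.65 ± 0.65 CPM in HPmECC, 8.83 ± 0.32 in mECC and 2.09 ± 0.27 in normal cells. Mbd4 was thus 4.63-fold higher in HPmECC than in normal cells, where Tdg did not pass the test under TMM scaling. The glycosylases Neil3 (10.9 ± 0.76, 11.7 ± 0.64 and 3.47 ± 0.38 CPM) and Nthl1 (15.2 ± 0.85, 12.6 ± 0.70 and 4.19 ± 0.29 CPM) ordered the lines above normal cells as well. Between the lines, the uracil glycosylase Ung had 24.1 ± 0.65 CPM in HPmECC, against 12.4 ± 1.34 in mECC, the glycosylase Mutyh 6.03 ± 0.54 and 3.72 ± 0.29 CPM, and the endonuclease Apex2 12.2 ± 0.39 and 19.8 ± 0.83 CPM. The glycosylase Neil2, named after its values were seen, had 3 counts in HPmECC, 0 in mECC and 73 in normal cells, so its fitted fold changes depend on the prior count.

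The S-adenosylmethionine cycle supplies the methyl group for DNA methylation. Of its 18 genes 15 were tested; 7 were higher and 3 lower in HPmECC against mECC, 5 higher and 10 lower in mECC against normal cells, and 4 higher and 11 lower in HPmECC against normal cells, with median log2 fold changes of 0.18, -0.63 and -0.71. For all genes the higher and lower shares were 33.8% and 34.5%, 42.1% and 44.2%, and 43.0% and 43.3%. Mtr, the methionine synthase, had 28.95 ± 1.59 CPM in HPmECC, 25.6 ± 0.83 in mECC and 109 ± 6.30 in normal cells, and its reductase Mtrr had 18.9 ± 0.91 CPM in HPmECC, against 13.6 ± 0.47 in mECC. Cbs, which draws homocysteine out of the cycle, had 3.55 ± 0.90 CPM in HPmECC, against 33.0 ± 1.39 in mECC, a 9.28-fold difference. Of the enzymes that spend S-adenosylmethionine on small molecules, Nnmt had 0.794 ± 0.186 CPM in HPmECC, 0.578 ± 0.152 in mECC and 14.2 ± 1.11 in normal cells. Gamt, which makes creatine, had 24.5 ± 0.66, 17.7 ± 1.36 and 1.72 ± 0.39 CPM. Adk, which clears the adenosine the cycle releases, had 35.4 ± 1.85 CPM in HPmECC, against 20.9 ± 1.42 in mECC. Epithelial, leukocyte, smooth muscle, endothelial and mesothelial markers moved the same way as the genes that were lower in the lines (values above); of the 6 epithelial markers 6 were called lower in HPmECC and 5 in mECC. The part of these markers was not tested.

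Genes that supply or use 2-oxoglutarate, the TET cosubstrate, were mostly higher in HPmECC: of 19, 14 were higher and 4 lower than in mECC (33.8% and 34.5% of all genes), and 14 higher and 5 lower than in normal cells (43.0% and 43.3%), with median log2 fold changes of 0.30 and 0.43. In mECC against normal cells 10 were higher and 7 lower, near the 42.1% and 44.2% of all genes, with a median of 0.17. Idh2, the mitochondrial enzyme that makes 2-oxoglutarate from isocitrate, had 416 ± 1.90 CPM in HPmECC, 309 ± 3.28 in mECC and 58.7 ± 1.69 in normal cells, 7.08-fold higher in HPmECC than in normal cells. Slc23a2, a transporter of vitamin C, which keeps TET iron reduced, had 60.1 ± 1.85, 73.2 ± 1.28 and 16.9 ± 1.87 CPM. Bcat1, which consumes 2-oxoglutarate in breaking down branched amino acids, had 91.5 ± 7.68, 151 ± 1.19 and 546 ± 30.0 CPM and so ran the other way. Between the lines, Gpt2 had 108 ± 17.5 CPM in HPmECC, against 50.5 ± 1.01 in mECC, and Dlst, a subunit of the 2-oxoglutarate dehydrogenase, 186 ± 2.06 and 109.9 ± 2.88 CPM.

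**Figure D5:**
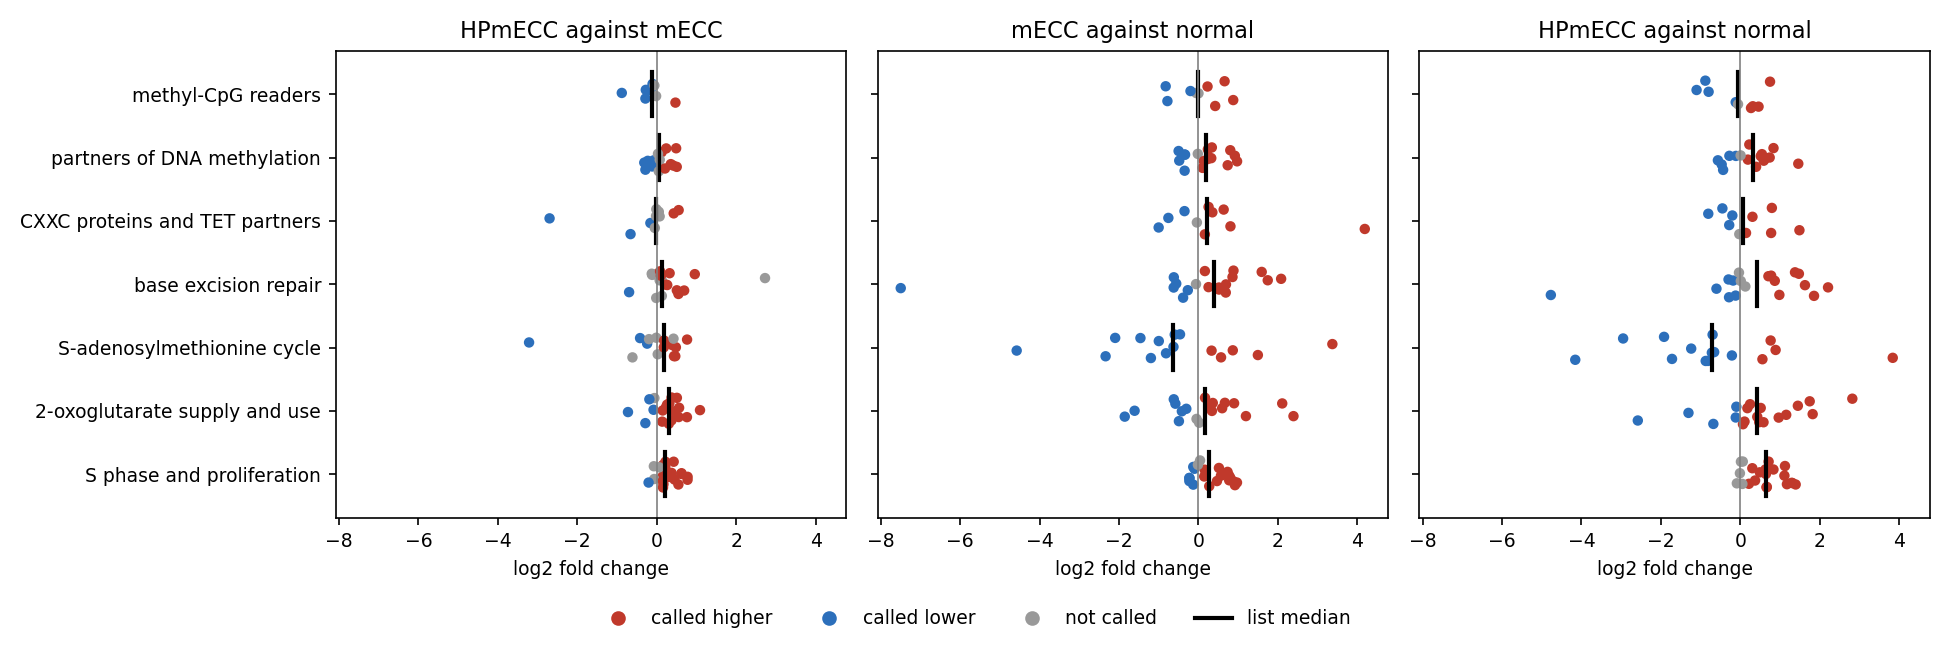
Log2 fold change of every tested gene of 7 pathway lists in the 3 comparisons, coloured by call, with a black line at each list's median. The S-adenosylmethionine cycle has medians of -0.63 and -0.71 against normal cells, and the S phase list has medians of 0.22, 0.27 and 0.65; the lowest base excision repair points against normal cells are Neil2, with 3 counts in HPmECC, 0 in mECC and 73 in normal cells.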

How the data were processed

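Per the labels' protocols, total RNA was taken up with RNeasy kits and sequenced from TruSeq mRNA libraries. The submitters' processing notes name Trim Galore, STAR 2.6.1a, RSEM 1.3.1 and GRCm38; for the annotation release and strand setting, nothing is given in the sources used here. The authors deposited RSEM expected counts per gene, already whole numbers, and TPM and FPKM values, which RSEM scales by transcript length. Of 55385 identifiers, 55144 matched a symbol.

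Differences between groups were taken from edgeR 4.0.16 under R 4.3.3 (quasi-likelihood test, all 12 libraries, TMM, filterByExpr with a minimum of 10 counts), with Benjamini-Hochberg adjustment over 15283 genes. Standard errors come from the F statistic, and errors after ± are SD over 4 libraries. The biological coefficient of variation was 4.27%. The genes, lists and tests were chosen with earlier results of these data known. Beyond the 10 genes, the text names, per list and comparison, up to 3 called genes of largest change with 5 CPM or more where higher, and the 3 nearest patterns of 4 genes. A gene that this rule selects is not reported here. Alternative settings were library totals, median-of-ratios factors, no filter, a minimum of 10 CPM in 4 libraries, DESeq2 1.42.0, limma 3.58.1 on log2(TPM + 1) and log2(TPM + 0.1), a replicate block, a fit of the 2 groups alone, and each library left out. Implied lengths were also taken from TPM and with a minimum of 20 counts, and TPM without mitochondrially encoded genes. The edgeR step was tested on simulated data. Promoters are from RefSeq on GRCm38.p6, gene coordinates from GENCODE M21.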

Additional observations from a re-analysis of the deposited data

Results flagged for a closer look

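In 84 sets of 4 libraries (CPM, TPM or implied length of a gene in a group), a library was marked where its gap to the nearest other one passed Dixon's 95% critical value; chance marks about 5% of such sets, and 9 were marked. In HPmECC, Tet2 stood at 27.001 CPM in replicate 4 and Tet1 at 0.77 TPM in replicate 3. In mECC, Dnmt3a stood at 16.24 TPM in replicate 1, which was the low one, and Dnmt3l at 0.0428 CPM and 0.08 TPM in replicate 1, its only mECC library with a count. The implied length of Dnmt1 was 4987 bases in mECC replicate 3. In normal cells, Tet3 stood at 38.7 CPM in replicate 1, Tet1 at 0.35 TPM in replicate 2, and the implied length of Uhrf2 was 3036 bases in the lowest library.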

How the results depend on the processing

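Of 499 fold changes of the 10 genes under the alternatives, 464 kept their direction and side of the threshold, as did 149 of 153 counts of calls within 1.5 times. Without mitochondrially encoded genes, 7 of 30 mean TPM levels moved by their SD or more. All 50 alternative implied lengths stayed within their SD. Low counts limit Dnmt3l, Tet1 and Dnmt3b. A minimum of 10 CPM left 7 of the 10 genes, with 2 higher in HPmECC than in mECC and 0 lower in mECC or HPmECC than in normal cells; fits of only the groups compared tested 9, without Dnmt3l, and gave 0 lower in mECC against normal cells and 3 higher in HPmECC against mECC. Library totals and both TPM fits called 9 of the 10 higher in mECC against normal cells and 8 in HPmECC against normal cells, against 6 and 7 under TMM. With library totals, 7866 genes were called higher and 5453 lower in mECC against normal cells (59.1% higher, 48.8% under TMM).

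The fold changes that turned sign were all near 0. In HPmECC against mECC, Tet2 was -0.039 and -0.049 and Tet3 -0.012 and -0.013 from TPM with pseudocounts of 1 and 0.1. In mECC against normal cells, Tdg was -0.0099 with median-of-ratios factors and -0.0096 by DESeq2. In HPmECC against normal cells, Tdg was -0.028 with median-of-ratios factors, -0.027 by DESeq2 and -0.0029 with the minimum of 10 CPM. The cause was not tested. With each library left out, HPmECC against mECC ran from -0.024 to 0.0093 for Tdg, -0.052 to 0.029 for Dnmt3a, -0.12 to 0.026 for Dnmt3b and -0.017 to 0.12 for Tet2; Tdg ran from -0.0016 to 0.037 in mECC and -0.0048 to 0.025 in HPmECC against normal cells.

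Same-numbered libraries of different groups correlated at -0.027 to 0.08 in their deviations, so the numbers are not taken as pairs. With the replicate block, 10321, 13123 and 13146 genes were called in HPmECC against mECC, mECC against normal cells and HPmECC against normal cells, against 10440, 13184 and 13200 without it, and the calls of the 10 genes did not change.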
